A study of Bos taurus with 6 samples.

Results

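Of the 765 miRNAs listed in the deposited table, 10 belong to the extended miR-15/16 family, which is described here in bovine myoblasts treated with resveratrol (RSV). The members were chosen by name alone: bta-miR-15a, bta-miR-16a, bta-miR-15b, bta-miR-16b, bta-miR-195, bta-miR-497, and both arms of bta-miR-424 and bta-miR-503. The rule that picks them uses their names and no measured value, although it was set with earlier results of these data known.

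The cells were primary myoblasts isolated from the longissimus dorsi muscle of bovine fetuses. The RSV group was kept for 4 days in differentiation medium with 20 µM RSV, a plant polyphenol, dissolved in dimethyl sulfoxide (DMSO). The control group received the same medium with DMSO alone, so both groups were differentiating. Each group had 3 samples, described in the study's methods as independent experiments, and total RNA of each sample went to mRNA and to small RNA sequencing. Whether the cells of the samples came from different fetuses is not given in the sources used here, so p-values measure the spread between these samples.

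A miRNA is a short RNA that guides a silencing complex to mRNAs, chiefly through the bases near its 5′ end, called the seed. miR-15a, miR-15b, miR-16, miR-195 and miR-497 share a seed, and miR-424-5p and miR-503-5p carry the same or a closely related one, so that their target mRNAs overlap. The family is known for restraining the cell cycle by repressing cyclins D and E, CDK6, CDC25A and CHEK1, and miR-424 and miR-503 are known to rise when myoblasts leave the cell cycle. The 3p arms come from the opposite side of the same hairpins and have other seeds.

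The members are made from 4 genomic clusters. In the RefSeq annotation of assembly ARS-UCD2.0, which is not the build the reads were mapped to, MIR15A and MIR16A are neighbouring miRNA genes on chromosome 12 within the transcript LOC100847818. MIR15B and MIR16B are neighbours on chromosome 1 within SMC4, which encodes a condensin subunit. MIR195 and MIR497 are neighbours on chromosome 19 within LOC107131510. MIR503 and MIR424 are neighbours on chromosome X, where no other gene spans them.

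The table gives 1 mean per group and miRNA, in normalized reads, that is reads divided by a size factor that puts the libraries on 1 depth scale. Whole reads of single libraries were recovered from these means for 605 miRNAs, including 6 members. The recovered libraries are called A to C within each group in falling order of size factor, and these letters are not the replicate numbers of the labels. The size factors were 1.54, 1.29 and 0.935 for RSV and 0.922, 0.823 and 0.729 for DMSO, so the control libraries were the shallower ones. Over 231 miRNAs, RSV library C was nearer to the DMSO libraries (R2 of 0.904 to 0.920 on the log2 scale) than to RSV libraries A and B (0.880 and 0.871). The leukocyte miRNA miR-142-5p stood at 4.54, 2.32 and 66.3 normalized reads in RSV libraries A to C. In DMSO libraries A to C it stood at 16.3, 6.07 and 17.8. miR-142-3p stood at 1.30, 0 and 35.3 in RSV and at 1.08, 2.43 and 5.49 in DMSO. Another leukocyte miRNA, miR-223, was listed at 0 in all 3 RSV libraries and at 1.08, 3.64 and 9.60 in the DMSO libraries. Some other miRNAs were low in RSV libraries A and B alone. For instance, miR-378b had 17, 13 and 125 recovered reads in RSV libraries A to C and 118, 101 and 85 in DMSO libraries. Whether library C or libraries A and B are the unusual ones was not tested. Results are therefore given with and without RSV library C.

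The muscle origin of the RNA was plain in the table. Of 8 muscle marker miRNAs, 7 were listed, and together they held 2.57% of all normalized reads in RSV and 2.51% in DMSO. The most abundant of them, miR-206, averaged 127629 and 139464 normalized reads. Of 3 tested by limma voom 1 was called, miR-499, which was up-regulated, beside 9.52% of all tested miRNAs called in either direction. miR-1, miR-133a, miR-133b and miR-206 had too many reads to be tested. Their log2 ratios (RSV over DMSO) ran from -0.13 to 0.07. Of the markers of other cells, 4 of 5 for blood summed to 240.2 normalized reads in RSV and 94.9 in DMSO. Most of this sum was the red cell miRNA miR-451 (203.7 and 73.8), while miR-223 differed in the other direction. The liver marker miR-122 averaged 88.4 and 43.6. Its libraries A to C held 200, 26.3 and 38.5 in RSV and 26.0, 17.0 and 87.8 in DMSO. RSV library A thus carried its higher RSV mean. The 5 epithelial markers summed to 70.7 and 64.5, and the endothelial pair miR-126-5p and miR-126-3p to 304.9 and 274.7. Of the neuronal markers, 3 of 4 were listed, with a sum of 7914 and 7613: miR-128 averaged 6805 and 6512, miR-9-5p 1109 and 1097, and miR-124a 0.356 and 3.44. The part of these other cells in the results was not tested.

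The family divided into a pair of abundant, level clusters, a rare cluster and an X-linked cluster. Both members of the rare cluster and all 4 of the X-linked cluster had lower means in RSV, and none of those tested passed limma voom with all 6 libraries. The miR-15/16 clusters summed to 6791 normalized reads in RSV and 6779 in DMSO, a log2 ratio (RSV over DMSO) of 0.00. miR-195 and miR-497 summed to 50.2 and 76.0, a log2 ratio of -0.60. Both arms of miR-424 and miR-503 together summed to 4978 and 5924, a log2 ratio of -0.25. Over all 10 members the sums were 11819 and 12778, or 0.178% and 0.174% of all miRNA reads. In bulk RNA, fewer cells that make a miRNA and less of it per cell cannot be told apart.

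By group means, 8 of 10 members were lower in RSV, with a median log2 ratio of -0.15. Among the 391 miRNAs whose mean reached 10 normalized reads, 48.3% were lower in RSV and the median log2 ratio was 0.00, with quartiles of -0.17 and 0.20. Only miR-195 was at least 1.5-fold lower among the members, against 4.35% of the 391. Scaling both groups to the same total of all miRNA reads adds 0.15 to every log2 ratio. Then 5 members were lower, beside 28.1% of the 391, and the means of miR-16a, miR-15b and miR-424-3p changed sign.

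**Figure D1:**
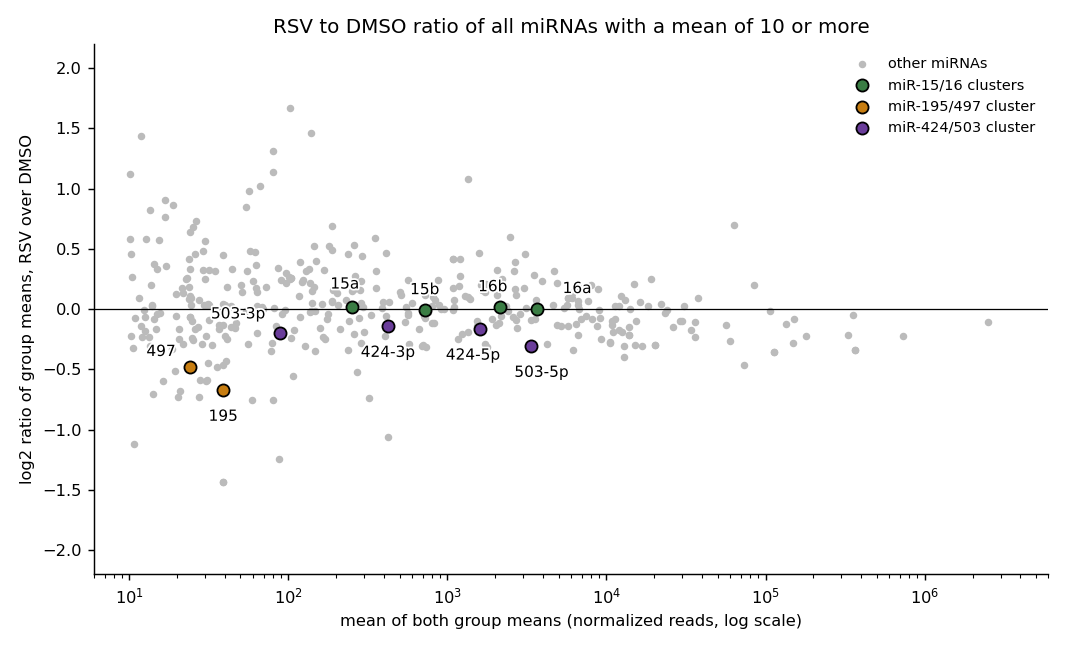
Log2 ratio of the group means (RSV over DMSO, vertical axis) against the mean of both groups in normalized reads (log axis) for the 391 miRNAs with a mean of at least 10. Each grey point is another miRNA and each coloured point a member. The 4 members of the miR-15/16 clusters lie at the zero line, the 4 arms of miR-424 and miR-503 lie between -0.31 and -0.14, and miR-497 and miR-195 lie at -0.48 and -0.67.

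For the recovered miRNAs, limma voom was fitted to the 231 whose mean reached 10 normalized reads, with p-values adjusted by Benjamini-Hochberg over all of them. It called 22 miRNAs (9.52%) under an adjusted p of 0.05, of which 13 were up-regulated and 9 down-regulated. Of the 6 members tested, limma voom called 0, and limma trend, which called 8.66% of the 231, also called 0. At an unadjusted p under 0.05, limma voom had 2 members, miR-195 and miR-497, both lower in RSV, beside 13.9% of all tested miRNAs lower at that level and 27.3% in either direction. Limma trend had 1 member, beside 26.4% in either direction. The libraries of the groups did not overlap for 1 member, beside 33.8% of the tested miRNAs. Without RSV library C, limma voom called 37 of 224 miRNAs (16.5%) and 1 of the 6 members, miR-195. Then 3 members had groups that did not overlap, beside 42.0% of the 224. Leaving out the RSV library nearest to DMSO by itself favours larger counts.

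The lowest 2 members were those furthest apart between the groups. miR-195, which is known to drive cell cycle exit in heart and skeletal muscle, had 28.5, 26.3 and 35.3 normalized reads in RSV libraries A to C and 34.7, 59.5 and 49.4 in DMSO libraries A to C. RSV libraries A and B lay below every DMSO library, and RSV library C lay just above DMSO library A. The means were 30.03 ± 4.68 (SD, n = 3) and 47.9 ± 12.5 (SD, n = 3), a difference of -37.3%. The limma voom log2 fold change (log2FC) was -0.66 with a standard error (SE) of 0.22, a 95% interval (unadjusted for the number of miRNAs, here and elsewhere) from -1.14 to -0.17 and a Benjamini-Hochberg adjusted p of 0.0910. Without RSV library C it was -0.75 with an adjusted p of 0.0401 by limma voom. Without RSV library A or B instead, the limma voom adjusted p was 0.169 and 0.194. Library C was singled out as the RSV library nearest to DMSO, so leaving it out favours a call. The lower p is thus no separate evidence for miR-195. The levels of miR-195 rest on 32 to 49 recovered reads per library.

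miR-497, the cluster partner of miR-195, stood at 17.5, 16.2 and 26.7 normalized reads with RSV and at 26.0, 26.7 and 31.6 with DMSO (libraries A to C, here and for the next members). RSV libraries A and B were again the lowest, while RSV library C lay at the level of DMSO libraries A and B. The means were 20.2 ± 5.73 and 28.1 ± 3.01 (SD, n = 3 each). The log2FC was -0.56 with an SE of 0.23, a 95% interval from -1.07 to -0.06 and a limma voom adjusted p of 0.142. Without RSV library C it was -0.71 with a limma voom adjusted p of 0.0664. Both miRNAs thus had a lower level in the same pair of RSV libraries, on 21 to 27 recovered reads per library for miR-497.

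Counted together, miR-195 and miR-497 made up 4.66%, 4.34% and 6.57% of the level of miR-15a plus miR-15b in the RSV libraries. In the DMSO libraries they made up 6.41%, 9.14% and 7.90%. The groups overlapped through RSV library C and DMSO library A, and a two-sided exact permutation test gave p = 0.2, where 3 libraries against 3 cannot go below 0.1. The ratio of miR-195 to miR-497 was 1.63, 1.62 and 1.32 in RSV and 1.33, 2.23 and 1.57 in DMSO (exact permutation p = 0.8). miR-195 exceeded miR-497 in 6 of 6 libraries.

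The miR-15/16 clusters had nearly the same levels in both groups. miR-15a, which targets cyclins and BCL2, had 264, 262 and 233 normalized reads with RSV against 210, 262 and 276 with DMSO. The RSV libraries lay within the range of the DMSO libraries. Its log2FC was 0.03 with an SE of 0.12, a 95% interval from -0.23 to 0.30 and a limma voom adjusted p of 0.893.

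miR-15b had 723, 716 and 711 normalized reads with RSV against 738, 681 and 749 with DMSO. The groups overlapped, and the RSV libraries were the closer together. Its log2FC was -0.01 with an SE of 0.08, a 95% interval from -0.20 to 0.18 and a limma voom adjusted p of 0.954. For miR-15a, miR-15b and miR-424-3p the search for reads held each library within 0.6 to 1.6 of the group mean, which limits the spread they can show. With 3 libraries a group, the data are compatible with any difference within the intervals of miR-15a and miR-15b, so equal levels are not shown. The reads of miR-15b were the least certain of the 6 members: 0.277 sets of reads were to be found by chance for its RSV mean.

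miR-16a and miR-16b, the abundant partners of miR-15a and miR-15b, had too many reads to be recovered, so they have group means and no test. miR-16a averaged 3672 normalized reads in RSV and 3677 in DMSO, a log2 ratio of 0.00. miR-16b averaged 2149 and 2129, a log2 ratio of 0.01. The mature miR-16a and miR-16b are nearly alike in sequence, and how reads matching both were counted is not given in the sources used here, so their separate levels are uncertain. The ratio of miR-16a to miR-15a was 14.5 in RSV and 14.7 in DMSO, and that of miR-16b to miR-15b was 2.997 and 2.946.

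**Figure D2:**
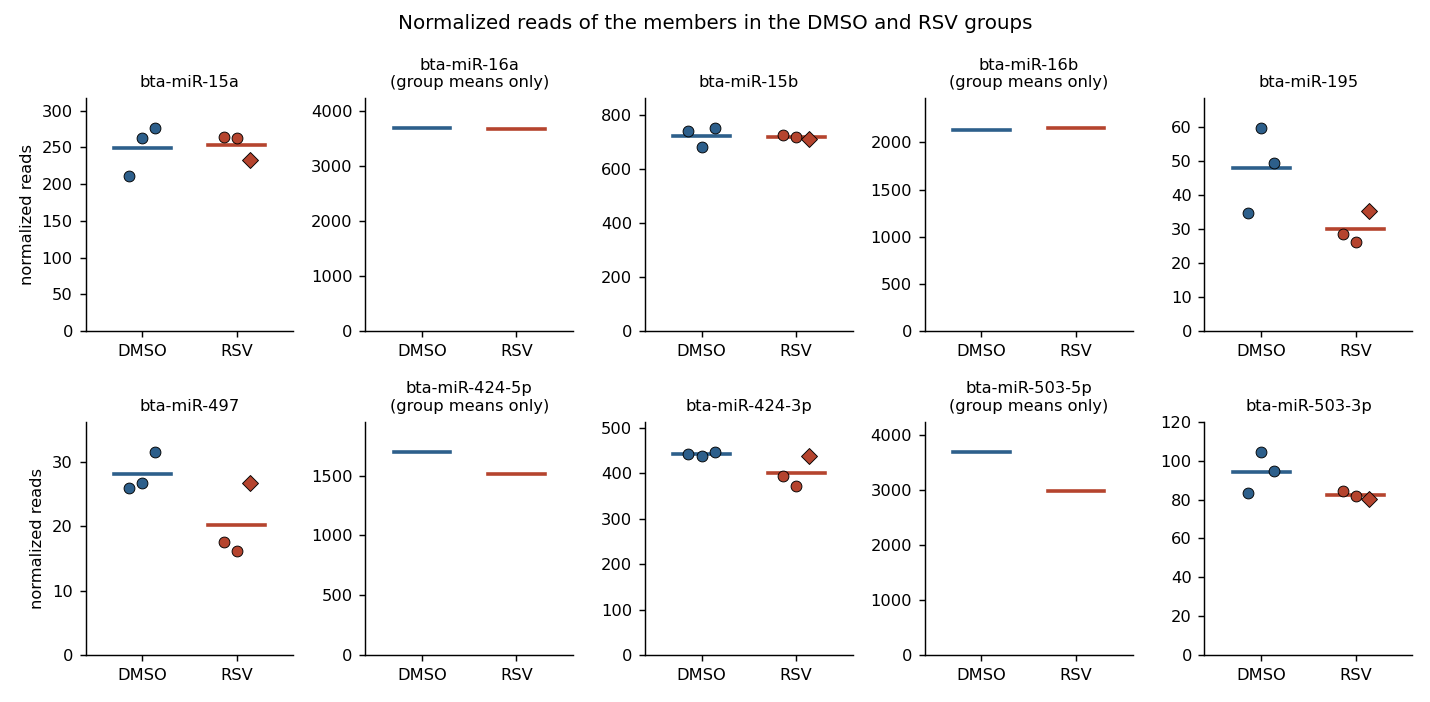
Normalized reads (linear vertical axis from 0, scaled to each panel) of the 10 members in DMSO and RSV. Points are the libraries of the 6 members with recovered reads, with RSV library C as a diamond, and horizontal lines are group means, which are all that miR-16a, miR-16b, miR-424-5p and miR-503-5p have. The groups of miR-15a and miR-15b overlap fully, and the RSV libraries of miR-195 and miR-497 lie mostly below those of DMSO.

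All 4 members of the X-linked cluster had lower means in RSV, by less than 1.5-fold. miR-503-5p, which represses CDC25A and cyclins, averaged 2980 normalized reads in RSV and 3688 in DMSO, a difference of -19.2% and a log2 ratio of -0.31. miR-424-5p averaged 1515 and 1698, a difference of -10.8% and a log2 ratio of -0.16. Neither has recovered reads, so their spread between libraries is unknown and no test was made. Of the 59 miRNAs with a mean from 1000 to 4000 normalized reads, whose median log2 ratio was 0.09, 2 were at or below the ratio of miR-503-5p and 7 at or below that of miR-424-5p, each count including the member itself. At or below the ratios of miR-16a and miR-16b lay 22 and 25 of the 59. The range of 1000 to 4000 ends just above miR-16a, so these counts leave out the more abundant miRNAs. Of the most abundant, miR-199a-3p and miR-3604 were lower than miR-503-5p (log2 ratio -0.34 for each). miR-21-5p, let-7i and miR-143 were not (-0.11, -0.23 and -0.05). A ratio like that of miR-503-5p was thus not confined to it among abundant miRNAs.

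The 3p arms have values per library. miR-424-3p had 394, 372 and 438.3 normalized reads with RSV against 443.6, 438.4 and 447.2 with DMSO. It was the only member whose 6 libraries did not overlap between groups, beside 33.8% of all tested miRNAs. RSV library C (438.34) was nearly level with the lowest DMSO library (438.39), so the separation is close to a tie. The log2FC was -0.15 with an SE of 0.09, a 95% interval from -0.36 to 0.06 and a limma voom adjusted p of 0.346. Without RSV library C it was -0.21 with a limma voom adjusted p of 0.224.

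miR-503-3p had 84.3, 81.9 and 80.2 normalized reads with RSV against 83.5, 104 and 94.7 with DMSO. DMSO library A lay within the range of the RSV libraries. The log2FC was -0.18 with an SE of 0.13, a 95% interval from -0.46 to 0.09 and a limma voom adjusted p of 0.385. For both 3p arms the mean was lower in RSV and the 95% interval of the difference included 0.

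**Figure D3:**
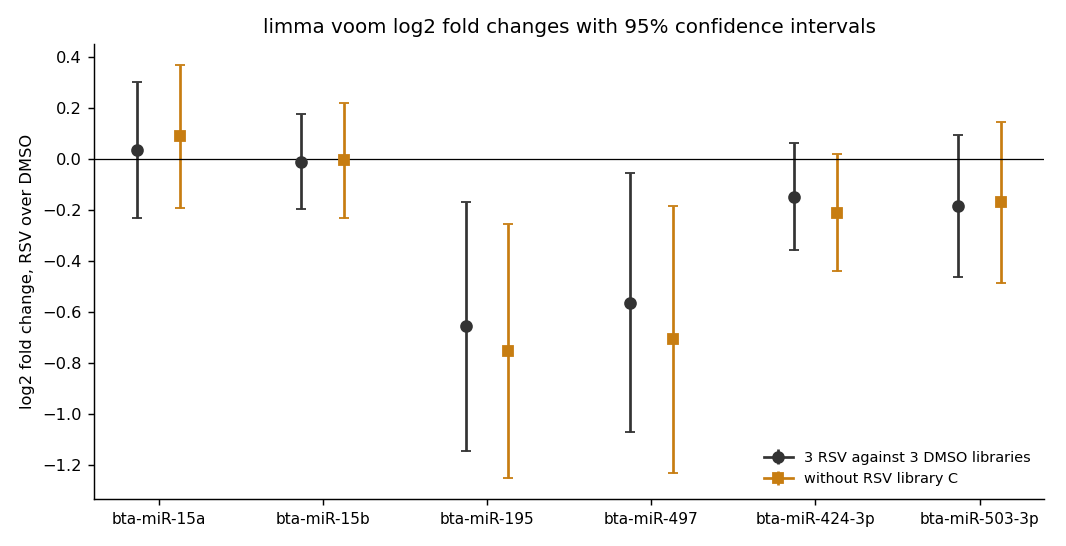
Log2FC (RSV over DMSO) of the 6 members with recovered reads from limma voom, with 95% intervals, using all 6 libraries and leaving out RSV library C. The intervals of miR-195 and miR-497 lie below 0 in both fits, and those of miR-15a, miR-15b, miR-424-3p and miR-503-3p include 0 in both.

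The proportions within the X-linked cluster differed little between the groups. The ratio of miR-424-5p to miR-503-5p was 0.508 in RSV and 0.460 in DMSO. The 5p arm exceeded the 3p arm 3.77-fold and 3.83-fold for miR-424 and 36.3-fold and 39.2-fold for miR-503. The 3p arm of miR-424 exceeded that of miR-503 in every library, by 4.54-fold to 5.47-fold in RSV and 4.198-fold to 5.31-fold in DMSO (exact permutation p = 0.8). A list of 4 other miRNAs made from genes near this cluster had been set. All 3 found had lower means in RSV, beside 48.3% of the 391 miRNAs with a mean of at least 10. miR-450a averaged 7243 and 7557 normalized reads (log2 ratio -0.06), miR-450b 11623 and 13277 (-0.19), and miR-542-5p 23.6 and 24.7 (-0.06). Those of miR-450a and miR-542-5p were nearer to 0 than the 0.15 that scaling both groups to the same total adds. The ratio of miR-450b lay further from 0 than those of both arms of miR-424. For miR-542-5p the limma voom adjusted p was 0.946. The list left out the miRNA genes next to MIR503 and MIR424, which are MIR3601 and MIR2484. miR-2484 had the higher mean in RSV (66.3 against 58.9), and miR-3601 had the same recovered reads as miR-542-5p.

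The family's order of level was miR-16a, miR-503-5p, miR-16b, miR-424-5p, miR-15b, miR-424-3p, miR-15a, miR-503-3p, miR-195 and miR-497. Each of the 6 members with recovered reads exceeded the next of them in 6 of 6 libraries. The ranges over libraries of miR-195 and miR-497 overlapped, and those of the other neighbours among these 6 did not. The 4 most abundant members have no spread, and miR-16a and miR-503-5p were only 1.10-fold apart. miR-503-5p held 25.2% of the family's reads in RSV and 28.9% in DMSO, and miR-16a held 31.1% and 28.8%, so the leading member by group mean was miR-16a in RSV and miR-503-5p in DMSO.

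Other miRNAs that act on the cell cycle were measured beside the family. Of 19 miRNAs known to restrain it (miR-34/449, let-7, miR-26 and miR-29), all were listed, 3 were tested, and limma voom and limma trend each called 0, with 1 at an unadjusted p under 0.05 by each, beside 27.3% and 26.4% of all tested miRNAs. Their median log2 ratio was -0.02, with 10 lower and 9 higher in RSV. The list ran from miR-26a, with means of 99711 and 127429 normalized reads (log2 ratio -0.35), to miR-34c, a p53 target, with 1822 and 863 (1.08). The 3 tested were miR-449a, miR-29b and miR-29c. miR-26a, miR-34c and miR-34a (3552 and 2585, log2 ratio 0.46) had too many reads to be recovered, so the tests do not cover them. Of 15 miRNAs known to promote the cell cycle (such as miR-17-5p and miR-221), 4 were tested, and limma voom and limma trend each called 0, again with 1 at an unadjusted p under 0.05 by each, beside the same shares of all tested miRNAs. Their median log2 ratio was 0.03, with 6 lower and 9 higher.

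Of 20 mRNAs known as targets of the family, 4 could be named in the table, through a published list that holds only mRNAs already found to differ. The 20 were written down after that published list had been seen. Whether the 20% named exceeds the share of all mRNAs found to differ was not tested. The difference of the 4 is therefore a description, and nothing follows from it for the other 16 or for targets of the family as a set. Reads of the 4 were recovered in the same way, and the mRNA libraries are not linked to the miRNA libraries. CCNE1, cyclin E1, had 112, 101 and 133 normalized reads with RSV against 69.5, 50.02 and 56.4 with DMSO, a ratio of 1.96. E2F7, a repressor of cell cycle genes, had 69.9, 74.8 and 37.9 against 10.4, 13.5 and 5.64, a ratio of 6.17. HMGA1, a chromatin protein, was 1.66-fold higher and FGF2, a growth factor that holds myoblasts in the cell cycle, 2.14-fold higher. All 4 had RSV libraries above every DMSO library, a separation that their selection from mRNAs that differ favours.

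**Figure D4:**
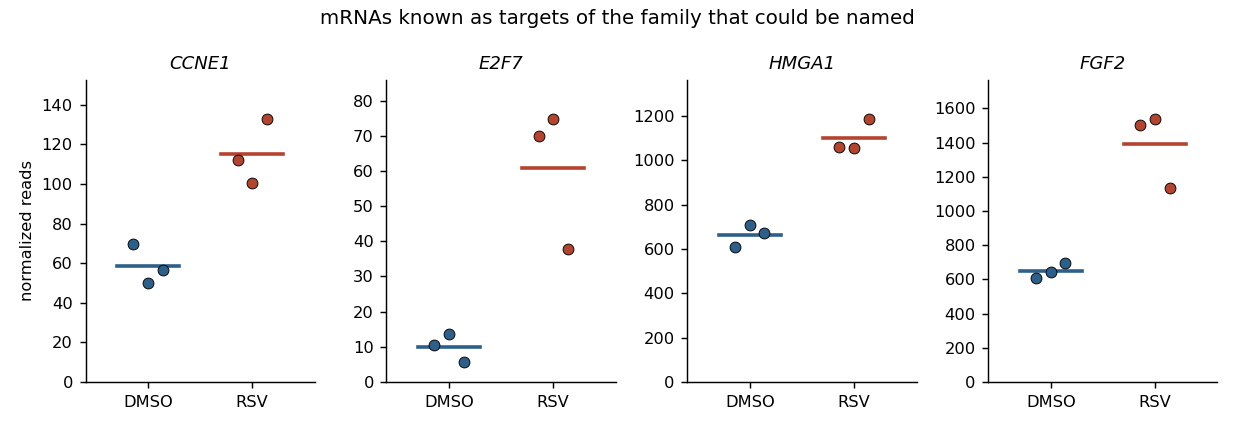
Normalized reads (linear vertical axis from 0, scaled to each panel) of CCNE1, E2F7, HMGA1 and FGF2 in DMSO and RSV, with points for mRNA libraries and horizontal lines for group means. The RSV points of each mRNA lie above its DMSO points, and the 4 were chosen from a list of mRNAs that differed.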

How the data were processed

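Small RNA reads were mapped by the authors with Bowtie 0.12.9 to UMD_3.1.1/bosTau8 and named by miRBase with miRDeep2. The deposited values used here are the authors' group means of normalized counts (reads divided by a size factor per library). Columns of the authors' own comparison, a log2 fold change with p-values made with DESeq, were not used. The aligner and counter of mRNA reads are not given in the sources used here.

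Each miRNA mean is a sum of 3 whole numbers of reads over 3 size factors, kept to 10 significant digits. The size factors were found from low means, and each mean up to 1000 was then searched for the reads that give it, with each library within 0.6 to 1.6 of the mean for means above 200 or not settled without it. A solution was kept when it was the only one and fewer than 0.3 chance matches were to be found, or 0.01 without the window. The window was chosen after seeing the data. The search was tested on simulated data with 1 fixed spread between libraries beyond counting noise. That test says little of miRNAs whose libraries lie outside the window. Of 583 miRNAs with means up to 400 in both groups, 581 were recovered. The recovered reads, 22427 to 47225 per library, are part of each library, and total depth is unknown. mRNA values had lost their decimal points, which were restored at the lowest place that gave whole reads.

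The test was voom from limma 3.58.1 in R 4.3.3, given the size factors as library sizes, with a minimum mean of 10 and no covariates, called at a Benjamini-Hochberg adjusted p under 0.05. The exact permutation tests given here were two-sided, on the log2 of ratios between members. Group means too high to recover were compared as ratios. All 10 members were named, with at most 4 examples of each list. All 8 hairpin genes were found by symbol in RefSeq ARS-UCD2.0. The members and lists were chosen with earlier results of these data known. The self-tests and plots used Python 3.11.15. Alternatives were no minimum, a minimum of 30, library totals as scaling, limma trend, and leaving out each library. Mature sequences were not used here.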

Additional observations from a re-analysis of the deposited data

How the results depend on the processing

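The count of called miRNAs (22 of 231 by limma voom) ranged from 7 to 37 over leaving out each library: it was 37 without RSV library C, 7 without DMSO library A, 8 without DMSO library B and 7 without DMSO library C. It was 5 of 138 with reads settled without a window, an alternative chosen after seeing the data that tests fewer miRNAs. The count of called members ranged from 0 to 1 over the same libraries, with 1 (miR-195) without RSV library C; it was 0 under every other alternative run. miRNAs whose group means differed by at least 1.5-fold numbered 38 of 391, 286 of 765 without a minimum and 9 of 248 at a minimum of 100.

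Over all alternatives the log2 fold change of miR-195 ranged from -0.89 to -0.48, with limma adjusted p from 0.0401 to 0.261, and that of miR-497 from -0.71 to -0.45, with adjusted p from 0.0664 to 0.322. Over leaving out each library, that of miR-15a ranged from -0.085 (without DMSO library A) to 0.11 and that of miR-15b from -0.052 to 0.016 (without DMSO library C), with 0.0062 without DMSO library A. With group means scaled to their sum, the log2 ratio was 0.14 for miR-16a, 0.13 for miR-15b and 0.0030 for miR-424-3p. The cause was not tested.

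No paired analysis was possible because the group means and the recovered libraries carry no replicate numbers. The 4 most abundant members, at means above 1000, have no measure of error. miR-195 and miR-497 rest on 21 to 49 reads per library, which limits their precision.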
